A study of Mus musculus with 4 samples.

Results

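The genes described are 10 chaperones and stress response genes of the endoplasmic reticulum (ER), Xbp1, Hspa5, Hsp90b1, Hyou1, Dnajb9, Sdf2l1, Creld2, Manf, Ddit3 and Trib3, of 22180 genes compared in mouse stomach. They were chosen by name from the platform's probe annotation, and all 10 were measured, each by 1 probe set. RNA of stomach pieces from FVB mice, all 1 year old, was measured on Affymetrix arrays, 2 for the Hdc-/- genotype and 2 for Hdc+/+. Hdc encodes histidine decarboxylase, which makes histamine. The labels name neither the deleted part of Hdc nor the sex of the mice or the stomach region taken, and no cells were sorted. All mice shared strain, age, housing and diet, and no treatment is labelled. Replicates are titled biological, without a statement that each was its own animal, so the p-values here reflect only the variation among these 4 samples.

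The ER folds proteins bound for secretion or for membranes. When unfolded proteins build up there, the membrane sensors Ern1 (IRE1), Eif2ak3 (PERK) and Atf6 start the unfolded protein response: Ern1 splices the Xbp1 transcript so that an active transcription factor is made, Atf6 is cut to release another, and Eif2ak3 slows translation while favouring Atf4, which raises Ddit3 and Trib3. Xbp1 and Atf6 raise chaperone genes. In the mouse stomach, the enzyme-secreting chief cells need Xbp1 for their dense ER. The arrays gave 1 value for Xbp1 and cannot tell its spliced from its unspliced transcript.

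Promoters were examined for stress response elements. The genes were chosen as known ER chaperones and stress response genes. A share of matches above that of all windows was therefore likely beforehand and is not independent support. Atf6 and Xbp1 bind the ER stress response element, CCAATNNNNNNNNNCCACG. RefSeq promoter windows (build GRCm38.p6, 250 bases before to 50 after the start) were matched by symbol for 8 of the 10 genes, and not for Hyou1 and Manf. The element was found, on either strand, in 3 of these 8 windows (Hspa5, Hsp90b1 and Creld2) and in 0.119% of all 32851 windows (39 windows). The windows of those 3 genes are shown because they hold it, with the element in capitals, and the window of Xbp1 because that gene had the largest genotype difference of the 10. Each is written 5′ to 3′ on the strand of the gene, at chr2:34771840-34772139 (plus strand) for Hspa5, chr10:86705395-86705694 (minus) for Hsp90b1, chr15:88819396-88819695 (plus) for Creld2 and chr11:5520391-5520690 (plus) for Xbp1.
Hspa5: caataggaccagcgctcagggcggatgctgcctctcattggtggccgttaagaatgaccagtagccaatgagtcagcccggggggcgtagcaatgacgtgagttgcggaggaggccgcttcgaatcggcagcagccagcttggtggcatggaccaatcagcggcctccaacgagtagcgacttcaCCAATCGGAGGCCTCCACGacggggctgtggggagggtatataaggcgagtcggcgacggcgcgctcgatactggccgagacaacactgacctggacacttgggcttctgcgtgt
Hsp90b1: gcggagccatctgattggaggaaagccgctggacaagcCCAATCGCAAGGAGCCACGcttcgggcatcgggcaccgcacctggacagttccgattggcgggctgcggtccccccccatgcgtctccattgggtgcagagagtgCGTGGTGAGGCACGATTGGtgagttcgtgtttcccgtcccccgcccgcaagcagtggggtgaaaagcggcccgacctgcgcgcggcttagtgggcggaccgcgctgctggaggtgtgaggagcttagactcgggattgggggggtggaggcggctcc
Creld2: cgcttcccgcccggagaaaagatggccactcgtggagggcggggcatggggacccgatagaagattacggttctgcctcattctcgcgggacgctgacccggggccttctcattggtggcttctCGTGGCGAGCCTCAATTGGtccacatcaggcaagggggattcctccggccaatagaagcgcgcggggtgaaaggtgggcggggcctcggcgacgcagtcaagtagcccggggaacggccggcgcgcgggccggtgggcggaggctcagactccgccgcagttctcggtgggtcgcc
Xbp1: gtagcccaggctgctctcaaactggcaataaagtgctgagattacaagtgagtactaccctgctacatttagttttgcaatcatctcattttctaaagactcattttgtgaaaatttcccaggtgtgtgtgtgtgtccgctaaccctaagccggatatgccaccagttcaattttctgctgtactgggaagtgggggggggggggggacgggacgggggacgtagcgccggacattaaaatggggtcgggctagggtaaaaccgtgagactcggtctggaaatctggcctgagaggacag
Hspa5 held 1 copy, whose first base lies 65 bases before the start. Hsp90b1 held 2, one on the gene's own strand 212 bases before the start and one on the opposite strand 107 bases before it. Creld2 held 1 on the opposite strand, 126 bases before the start. The related element II, ATTGGNCCACG, and the Xbp1 site TGACGTGG were in 0 of the 8 windows, against 0.0365% and 0.676% of all windows. The element through which Atf4 acts, TGATGNAAN, was in 1 of the 8, that of Trib3, with the match beginning 13 bases after the start, and in 3.95% of all windows. The part CCACG alone, which the first 3 of these elements contain on one strand or the other, was in 5 of 8 windows and in 32.8% of all. These are matches of letters and say nothing of binding.

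On the arrays as a whole, limma (a linear model with a variance shared across genes, Benjamini-Hochberg adjusted over all genes at 0.05) called 1 of 22180 genes higher in Hdc-/- (0.00451%) and 0 lower (0%). The higher count was 3 without Hdc+/+ array 1 and 0 without any other 1 array, and the lower count was 158 without Hdc+/+ array 1 and 0 without any other 1 array. With no adjustment, a p under 0.05 was reached by 816 genes in the higher direction (3.68%) and 1081 in the lower (4.87%). The called gene was the class II histocompatibility gene H2-Ea. Hdc itself read 3.77 and 4.06 on the Hdc-/- arrays and 3.99 and 3.82 on the Hdc+/+ arrays, so it did not check the labels, and where its probes lie relative to the deletion is not stated in the labels. Stomach markers were bright on all arrays: the pit cell gene Gkn2 read between 13.23 and 13.35 and the proton pump gene Atp4b between 10.96 and 11.49. Markers of neighbouring organs were uneven. The summed signal of 15 hepatocyte markers was 705 and 891 on the Hdc-/- arrays and 5587 and 16518 on the Hdc+/+ arrays, on a linear scale, and that of 11 intestinal markers was 649 and 593 on the Hdc-/- arrays against 1477 and 8802 on the Hdc+/+ arrays. Of 15 pancreatic acinar markers, 13 read higher on Hdc+/+ array 2 than on Hdc+/+ array 1, by a median of 3.11 (log2). Acinar cells, hepatocytes and chief cells all carry much ER, and in tissue pieces fewer cells of a type and less RNA per cell cannot be told apart.

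**Figure D1:**
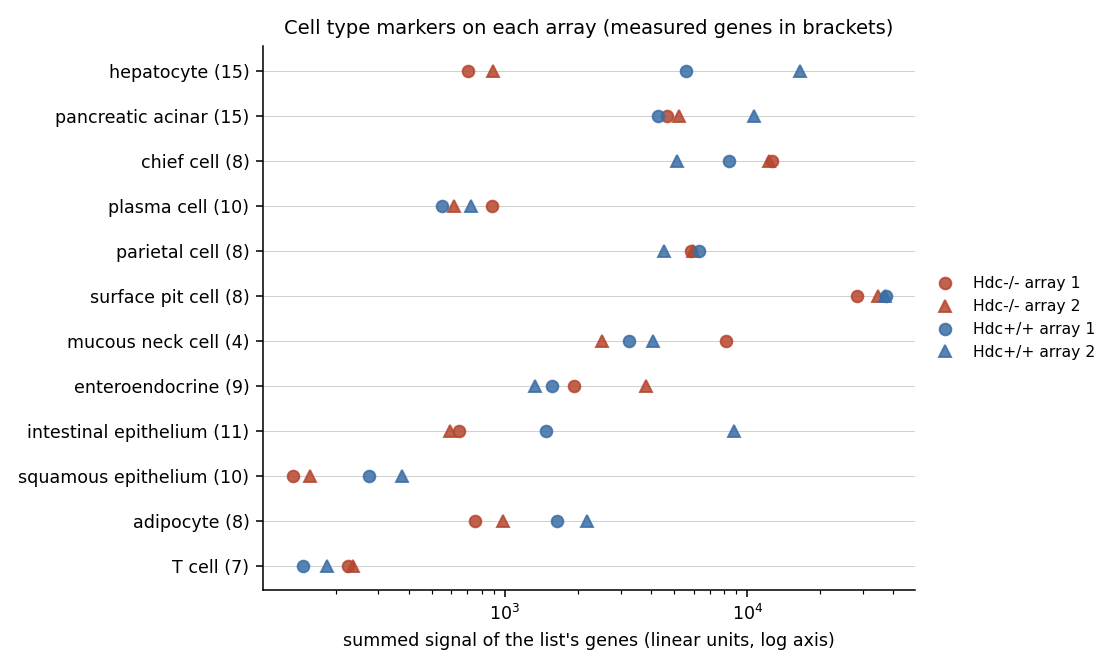
Summed signal of 12 lists of cell type markers (linear units on a log axis) on Hdc-/- arrays (red) and Hdc+/+ arrays (blue), with circles for replicate 1 and triangles for replicate 2. Hepatocyte markers summed to 705 and 891 on the Hdc-/- arrays and 5587 and 16518 on the Hdc+/+ arrays, and mucous neck markers were highest on Hdc-/- array 1, at 8151.

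None of the 10 ER genes passed the test, with limma adjusted p between 0.586 and 0.997. An unadjusted p under 0.05 was reached by 0 of them, where the shares over all genes were 3.68% higher and 4.87% lower. Their differences, Hdc-/- minus Hdc+/+, ran from -0.20 to 0.41 on the log2 scale, with a median of 0.08, against 0.02 over all genes. The median was 0.03 without Hdc-/- array 1 and 0.24 without Hdc-/- array 2. The difference was above 0 for 7 of the 10, where 54.1% of all genes were above 0. Both Hdc-/- arrays read above both Hdc+/+ arrays for 3 members, Xbp1, Hyou1 and Creld2, as for 21.5% of all genes, and the reverse held for 0 members, against 17.6% of all genes. Read against those shares, 3 of 10 is near the background. In this design an exact permutation test of 1 gene cannot give a p below 0.333.

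**Figure D2:**
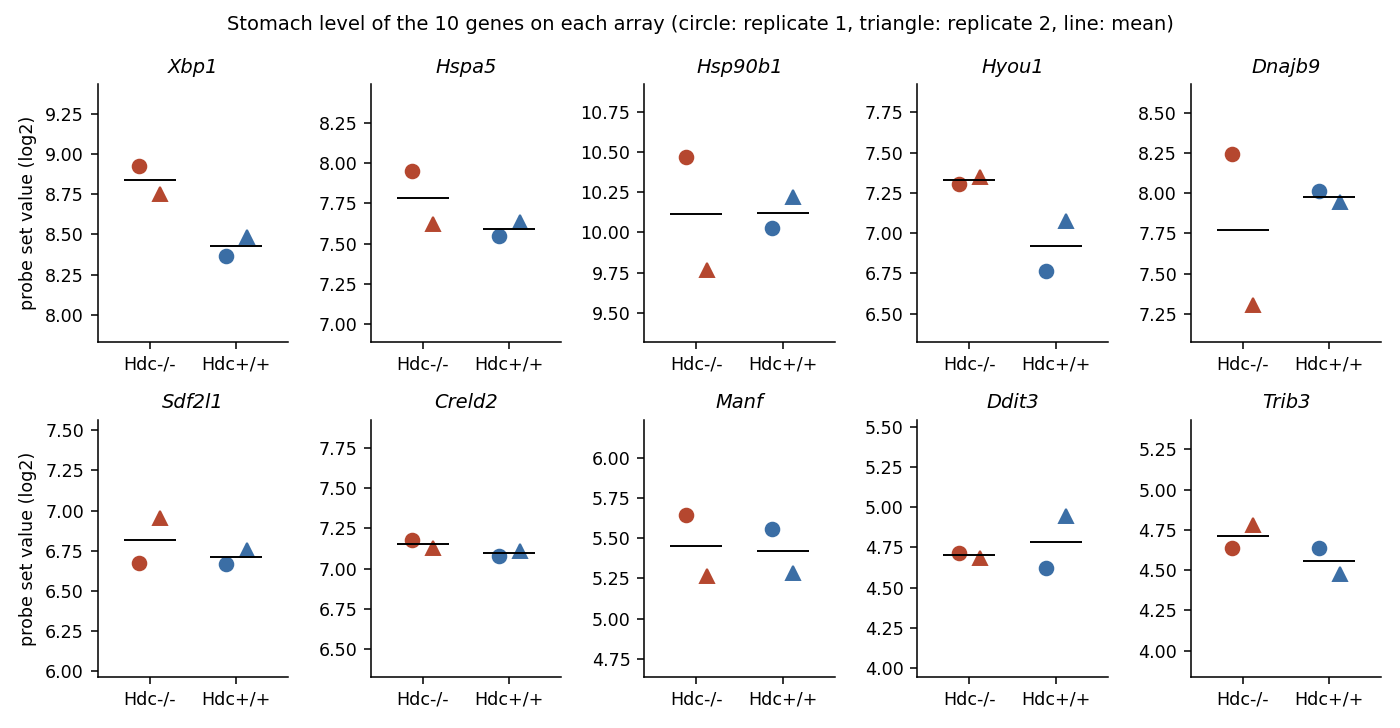
Probe set values (log2) of the 10 genes on the Hdc-/- arrays (red) and the Hdc+/+ arrays (blue), with circles for replicate 1, triangles for replicate 2 and lines for group means. Every panel spans the same log2 range around its own centre. Xbp1 read 8.93 and 8.75 in Hdc-/- and 8.37 and 8.48 in Hdc+/+, while Hsp90b1 and Dnajb9 spread most between the Hdc-/- arrays.

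The transcription factor gene Xbp1 showed the largest difference of the 10. It read 8.93 and 8.75 on the Hdc-/- arrays and 8.37 and 8.48 on the Hdc+/+ arrays. The genotypes did not overlap, and the gap between them was larger than the gap between arrays of either genotype. The means were 8.84 ± 0.12 in Hdc-/- and 8.43 ± 0.08 in Hdc+/+ (SD, n = 2 each), a log2 difference of 0.41 (SE 0.17), or 1.33-fold, with a 95% interval from -0.004 to 0.83 and a limma adjusted p of 0.586. The difference ran from 0.33 to 0.50 with any 1 array left out. Since the genotypes did not overlap, leaving out 1 array could not change its direction. In the same arrays the summed signal of 8 chief cell markers was 12658 and 12271 in Hdc-/- against 8433 and 5144 in Hdc+/+. Markers of the other cell types named above as carrying much ER mostly had lower means in Hdc-/-. This held for 15 of 15 hepatocyte markers and for 12 of 15 acinar markers, with 3 acinar markers higher. Over all genes, 54.1% had a higher mean in Hdc-/-. The acinar sums were 4663 and 5239 in Hdc-/- against 4266 and 10610 in Hdc+/+, so only Hdc+/+ array 2 stood above the Hdc-/- arrays. Both Hdc-/- arrays read below both Hdc+/+ arrays for 5 acinar markers (17.6% of all genes) and above for 1 (21.5%). The part of these cell types in the Xbp1 difference was not tested.

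Hyou1, an ER chaperone of the large HSP70 class that helps Hspa5 exchange its nucleotide, was close behind. It read 7.30 and 7.35 on the Hdc-/- arrays and 6.76 and 7.08 on the Hdc+/+ arrays. The Hdc-/- arrays lay close together and above both Hdc+/+ arrays, which were further apart. The means were 7.33 ± 0.03 in Hdc-/- and 6.92 ± 0.22 in Hdc+/+ (SD, n = 2 each), a difference of 0.41 (SE 0.18), or 1.33-fold, with a 95% interval from -0.04 to 0.86 and a limma adjusted p of 0.607. It was 0.56 without Hdc+/+ array 2 and 0.25 without Hdc+/+ array 1.

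Hspa5 (BiP), the main ER chaperone of the HSP70 class, read 7.95 and 7.62 on the Hdc-/- arrays and 7.55 and 7.64 on the Hdc+/+ arrays. Hdc-/- array 1 stood above the other arrays, and Hdc-/- array 2 lay within the Hdc+/+ values, so the groups overlapped. The difference was 0.19 (SE 0.19, 95% interval -0.27 to 0.66, limma adjusted p = 0.827), and it was 0.03 without Hdc-/- array 1 and 0.36 without Hdc-/- array 2.

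Hsp90b1 (GRP94), the ER member of the HSP90 class, read 10.47 and 9.76 on the Hdc-/- arrays and 10.03 and 10.22 on the Hdc+/+ arrays. The highest and the lowest value both came from Hdc-/- mice, with the Hdc+/+ values between them. The difference was -0.01 (SE 0.27, 95% interval -0.67 to 0.66, limma adjusted p = 0.997), and it stood at -0.36 without Hdc-/- array 1 and at 0.34 without Hdc-/- array 2. It was also above 0 after a second quantile normalization (0.03) and after centring the arrays (0.003). Its direction is therefore not settled by these arrays.

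Dnajb9 (ERdj4), a J-domain partner of Hspa5, had the same layout and the widest spread. It read 8.24 and 7.30 on the Hdc-/- arrays and 8.01 and 7.94 on the Hdc+/+ arrays. The Hdc+/+ arrays lay between the Hdc-/- arrays and near the higher one. The difference was -0.20 (SE 0.32, 95% interval -1.004 to 0.59, limma adjusted p = 0.909), with -0.68 without Hdc-/- array 1 and 0.27 without Hdc-/- array 2.

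Among the smaller ER-resident and secreted factors, Sdf2l1, a co-chaperone that works with Hspa5, read 6.67 and 6.96 on the Hdc-/- arrays and 6.67 and 6.75 on the Hdc+/+ arrays. Only Hdc-/- array 2 stood above the rest, and the difference was 0.10 (SE 0.18, limma adjusted p = 0.920), or -0.04 without that array. Creld2, an ER stress-induced protein with epidermal growth factor-like domains, read 7.18 and 7.13 on the Hdc-/- arrays and 7.08 and 7.11 on the Hdc+/+ arrays. Its groups did not overlap, but all 4 values lay close together, and its difference was 0.06 (SE 0.16, 95% interval -0.33 to 0.45, limma adjusted p = 0.958). Manf, a factor that is held in the ER and secreted under stress, read 5.64 and 5.26 on the Hdc-/- arrays and 5.56 and 5.28 on the Hdc+/+ arrays. Each genotype had 1 high and 1 low array, and the difference was 0.03 (SE 0.21, limma adjusted p = 0.983), or -0.16 without Hdc-/- array 1 and -0.10 without Hdc+/+ array 2.

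Ddit3 and Trib3, the members of the Eif2ak3 branch, overlapped between genotypes. Ddit3 (CHOP), a transcription factor that promotes cell death under lasting ER stress, read 4.72 and 4.69 on the Hdc-/- arrays and 4.63 and 4.95 on the Hdc+/+ arrays. Both Hdc-/- values lay between the Hdc+/+ values, and the difference was -0.08 (SE 0.18, 95% interval -0.54 to 0.37, limma adjusted p = 0.944), or 0.08 without Hdc+/+ array 2. Trib3, a pseudokinase gene that Ddit3 and Atf4 induce, read 4.64 and 4.78 on the Hdc-/- arrays and 4.64 and 4.48 on the Hdc+/+ arrays. Hdc-/- array 1 and Hdc+/+ array 1 were level, and the difference was 0.15 (SE 0.17, 95% interval -0.27 to 0.57, limma adjusted p = 0.860), or 0.0702 without Hdc+/+ array 2 and 0.23 without Hdc+/+ array 1. On every array both genes had signals close to the middle of all genes (percentiles 47.7 to 57.2). No background values were used here, so whether such signals stand above background was not assessed.

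**Figure D3:**
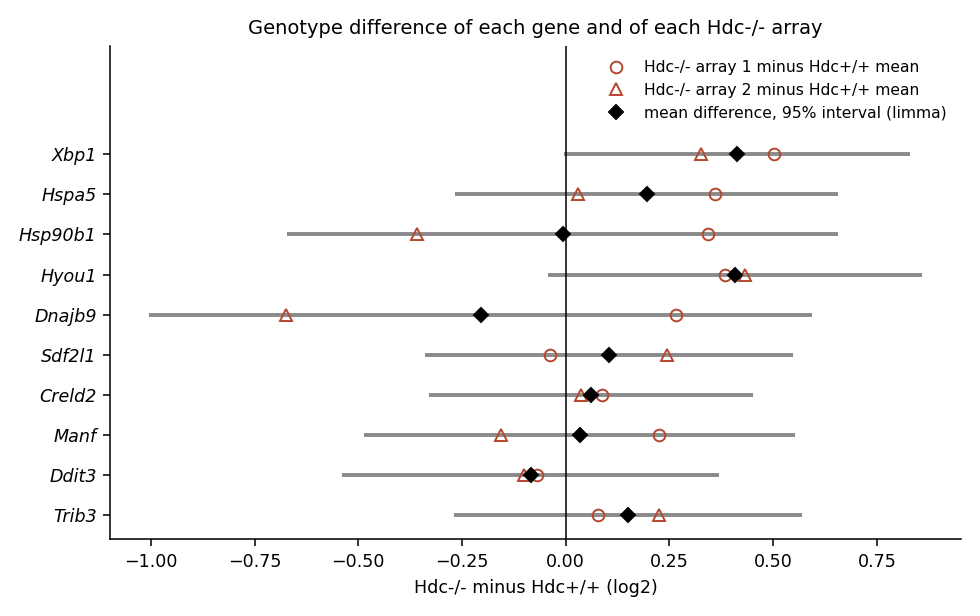
Hdc-/- minus Hdc+/+ difference of each gene (log2; diamonds, with the 95% interval from limma as bars), with each Hdc-/- array set against the Hdc+/+ mean (open symbols). All 10 intervals include 0, from the lowest bound of -1.004 (Dnajb9) to the highest of 0.86 (Hyou1), and the Hdc-/- arrays lie on opposite sides of 0 for Hsp90b1, Dnajb9, Sdf2l1 and Manf.

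The spread within Hdc-/- was larger than the genotype difference for several members. Hdc-/- array 1 exceeded Hdc-/- array 2 by 0.94 for Dnajb9, 0.70 for Hsp90b1, 0.38 for Manf and 0.33 for Hspa5 (log2). A gap of at least 0.5 in that direction was found for 2 of 10 members, Dnajb9 and Hsp90b1, and for 8.98% of all genes, and in the opposite direction for 0 members and 7.32% of all genes. The Hdc+/+ arrays were closer, with 0 members apart by 0.5, against 11.6% of all genes. The widest Hdc+/+ gaps were 0.32 for Ddit3 and 0.31 for Hyou1, both higher on array 2. Pancreatic, hepatic and intestinal marker signal was also higher on that array than on Hdc+/+ array 1, and its part in these gaps was not tested. Hdc-/- array 1 gave the highest of the 4 values for 6 members, against 27.1% of all genes, and Hdc+/+ array 1 the lowest for 6 members, against 20.4%. Each gap compares 1 array with 1 array and has no test.

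**Figure D4:**
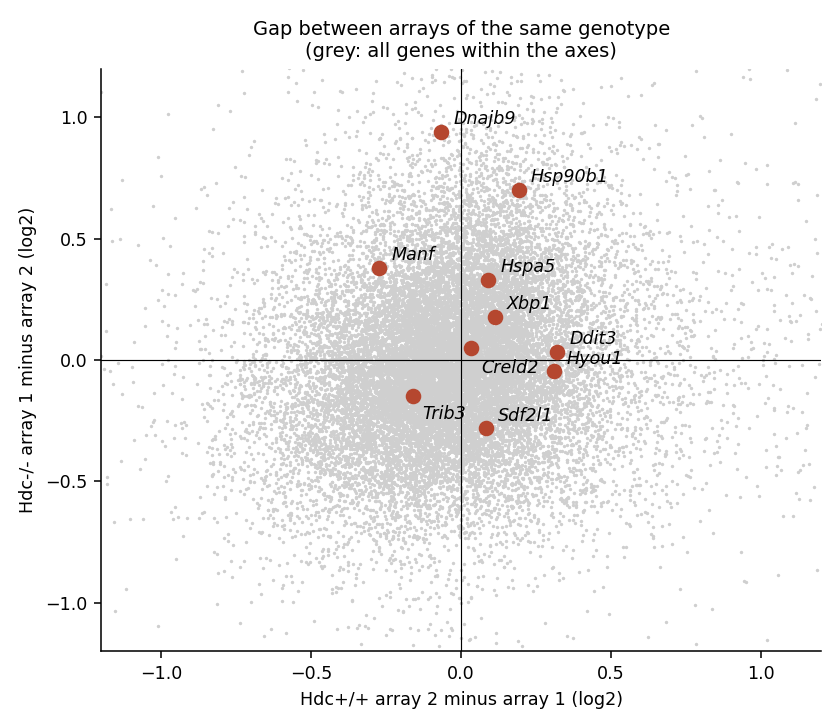
Gap between the 2 Hdc-/- arrays (vertical axis, log2) against the gap between the 2 Hdc+/+ arrays (horizontal axis, log2) for the 10 genes (red) and all other genes within the axes (grey). Dnajb9 (0.94) and Hsp90b1 (0.70) lie highest, and Ddit3 (0.32) and Hyou1 (0.31) furthest to the right.

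Genes of most other pathway lists also tended to read higher on Hdc-/- array 1 than on Hdc-/- array 2. Array 1 read above array 2 for 18 of 21 other ER chaperones and cofactors (median gap 0.34), for 15 of 19 disulfide isomerases and oxidases (0.43) and for 21 of 26 genes of ER to Golgi transport (0.32), beside 46.9% of all genes (median -0.02) and 54.4% of genes brighter than the median gene. Smaller gaps were found for translocation (13 of 21, median 0.16), glycosylation (11 of 15, 0.16), sensors and regulators (15 of 20, 0.14) and Atf4 and Ddit3 targets (20 of 30, 0.21). The smallest were those of ER-associated degradation (9 of 17, median 0.07) and of heat shock proteins outside the ER (9 of 17, median 0.03). Among the first 3 of these lists the widest gap was that of the prolyl isomerase gene Ppic, at 8.50 on Hdc-/- array 1 and 6.98 on Hdc-/- array 2, against 6.78 and 6.65 on the Hdc+/+ arrays. Agr2, a disulfide isomerase of mucus-making cells, read 11.15 and 10.17 in Hdc-/- against 10.33 and 10.001 in Hdc+/+. Both were picked after their values were seen. All 4 mucous neck cell markers read higher on Hdc-/- array 1 than on Hdc-/- array 2. Muc6, the mucin of neck cells, read 11.94 and 8.90 in Hdc-/- against 8.40 and 9.30 in Hdc+/+, and Tff2 read 11.99 and 10.91 in Hdc-/- against 11.47 and 11.71 in Hdc+/+. The summed signal of 10 plasma cell markers was 885 and 617 in Hdc-/- against 551 and 724 in Hdc+/+, and 3 of these 10 (Derl3, Txndc5 and Fkbp11) are ER genes also held by the lists above. The antibody joining chain gene Jchain read 8.57 and 6.39 in Hdc-/- against 4.16 and 6.89 in Hdc+/+. The part of these cell types in the gap was not tested.

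Upstream of the members, the sensor genes differed in degree. Atf6 read 7.32 and 7.33 on the Hdc-/- arrays and 6.69 and 6.71 on the Hdc+/+ arrays. Arrays of each genotype were nearly level and the genotypes were apart, with a difference of 0.62 (SE 0.16), an unadjusted p of 0.00813 and a limma adjusted p of 0.402. Eif2ak3 read 6.42 and 6.27 in Hdc-/- against 5.99 and 5.999 in Hdc+/+, a difference of 0.35 (SE 0.16, limma adjusted p = 0.620). Ern1 read 6.39 and 6.23 in Hdc-/- against 6.02 and 6.38 in Hdc+/+, and these groups overlapped. Ern2, related to Ern1, and Atf6b, related to Atf6, did not overlap between genotypes. Ern2 read 8.62 and 8.32 in Hdc-/- against 8.01 and 8.18 in Hdc+/+ (difference 0.38, SE 0.19, limma adjusted p = 0.639). Atf6b read 6.27 and 6.41 in Hdc-/- against 5.83 and 5.96 in Hdc+/+ (difference 0.44, SE 0.17, limma adjusted p = 0.558). Eif2ak3, Ern1, Ern2 and Atf6b were named for their role after their values were seen. Over the list of 20 measured sensors and regulators, 0 passed, and the median difference was 0.14 (0.0888 without Hdc-/- array 1 and 0.20 without Hdc-/- array 2). The difference was above 0 for 15 of the 20 (54.1% of all genes). Both Hdc-/- arrays read above both Hdc+/+ arrays for 10 of them (21.5% of all genes) and below for 3 (17.6%). An unadjusted p under 0.05 was reached by 3 in the higher direction (3.68% of all genes) and 2 in the lower (4.87%). The smallest p was that of Creb3l3, a membrane-bound transcription factor of liver and intestine, at 5.19 and 5.14 in Hdc-/- against 6.15 and 6.98 in Hdc+/+ (difference -1.40, SE 0.29, limma adjusted p = 0.345). It read lower on the Hdc-/- arrays, where the hepatocyte and intestinal marker sums were also lower, and their part was not tested.

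**Figure D5:**
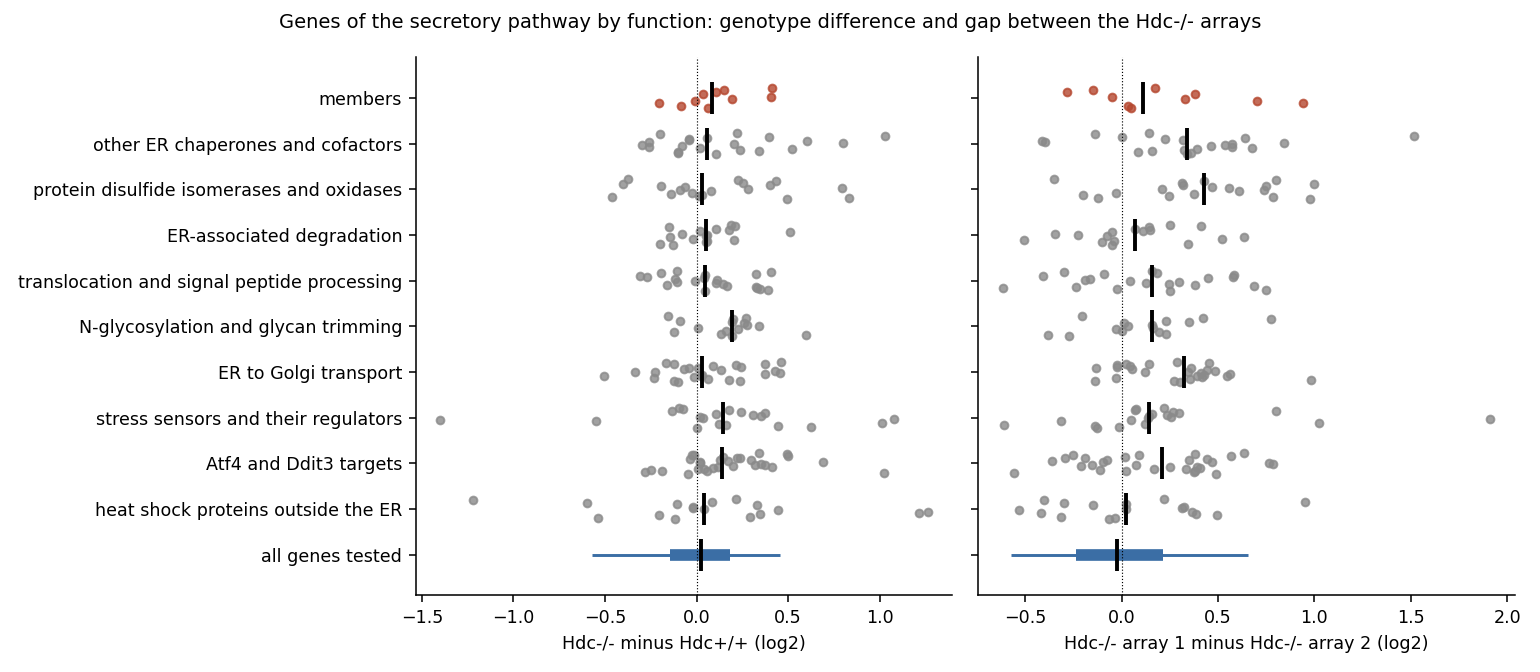
Each point is a gene of the named list, with its Hdc-/- minus Hdc+/+ difference on the left and its gap between Hdc-/- array 1 and array 2 on the right (both log2); black bars are medians, and the blue bar gives the quartiles of all genes tested, with lines to the percentiles 5 and 95. List medians on the left run from 0.03 to 0.20 beside 0.02 for all genes. On the right they run from 0.03 (heat shock proteins outside the ER) to 0.43 (disulfide isomerases) beside -0.02 for all genes.

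Downstream and around the members, 0 genes of any pathway list passed the adjusted test. Several list medians followed the Hdc-/- arrays: without array 1 they were -0.08 (other chaperones), -0.11 (disulfide isomerases) and -0.15 (ER to Golgi transport), and without array 2 they were 0.29, 0.28 and 0.18 in the same order. Among 30 measured targets of Atf4 and Ddit3 the median difference was 0.14 (0.0725 without Hdc-/- array 1 and 0.23 without Hdc+/+ array 2). An unadjusted p under 0.05 was reached by 2 in the higher direction (3.68% of all genes) and 0 in the lower (4.87%). These were Asns, the asparagine synthetase gene, at 7.45 and 8.005 in Hdc-/- against 6.86 and 6.55 in Hdc+/+ (difference 1.03, SE 0.25, limma adjusted p = 0.396), and Wars, a tryptophanyl-tRNA synthetase gene that interferon also induces, with a difference of 0.49 (SE 0.19). Asns and Wars were named for the smallest p of the list, a choice that favours values without overlap between genotypes. Both Hdc-/- arrays read above both Hdc+/+ arrays for 11 of the 30 targets (21.5% of all genes) and below for 1 (17.6%). Ddit3 and Trib3, which were not chosen by p, overlapped. Atf4 itself read 7.31 and 7.43 in Hdc-/- against 7.55 and 7.19 in Hdc+/+.

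Of 21 other chaperones and cofactors (median 0.06), 3 read higher and 0 lower with an unadjusted p under 0.05, where the shares over all genes were 3.68% higher and 4.87% lower. The prolyl isomerase gene Fkbp2 differed by 0.60 (SE 0.20) and Fkbp11, an isomerase gene of secretory cells, by 0.80 (SE 0.30). Of 19 disulfide isomerases and oxidases (median 0.03), 2 were higher and 0 lower, Agr3 (0.83, SE 0.25) and the ER peroxiredoxin gene Prdx4 (0.79, SE 0.27). Agr3 was dim (percentiles 9.35 to 25.6), at 3.43 and 3.55 in Hdc-/- against 2.98 and 2.33 in Hdc+/+. Of 17 degradation genes (median 0.05), 1 was higher and 0 lower, the ER lectin gene Os9 (0.51, SE 0.17), while Ufd1, which helps extract proteins from the ER, differed by 0.21 (SE 0.20). Of 15 glycosylation genes (median 0.20, the highest of the lists), 1 was higher and 0 lower, the oligosaccharyltransferase subunit gene Ddost (0.60, SE 0.19), and the glucosidase II subunit gene Prkcsh differed by 0.34 (SE 0.16). The median of this list was 0.06 without Hdc-/- array 1. Both Hdc-/- arrays read above both Hdc+/+ arrays for 7 of these 15 glycosylation genes (21.5% of all genes) and below for 1 (17.6%). They were above for 7 and below for 2 of the 21 other chaperones. The counts were 5 and 1 of the 19 disulfide isomerases and oxidases, and 4 and 2 of the 17 degradation genes.

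Translocation genes (21, median 0.05) and ER to Golgi genes (26, median 0.03) had 0 members at an unadjusted p under 0.05. The shares over all genes were 3.68% higher and 4.87% lower. Both Hdc-/- arrays read above both Hdc+/+ arrays for 3 translocation and 8 ER to Golgi genes (21.5% of all genes). They read below for 4 and 3 (17.6%). The translocon channel gene Sec61a1 differed by 0.35 (SE 0.16) and Ssr2 of the translocon-associated complex by 0.33 (SE 0.16). The cargo receptor gene Tmed9 differed by 0.46 (SE 0.19), and Sar1b, the GTPase of the coat that carries large lipoprotein cargo, by -0.51 (SE 0.22). The Sar1b values were 8.56 and 8.17 in Hdc-/- against 8.69 and 9.05 in Hdc+/+. The highest was on the array with the highest hepatocyte and intestinal marker sums, whose part was not tested.

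Heat shock proteins outside the ER, mostly cytosolic but with the mitochondrial chaperonin genes Hspd1 and Hspe1 among them, had a wider range of differences than the ER members. Over these 17 measured genes the median difference was 0.04, with values from -1.22 to 1.26. An unadjusted p under 0.05 was reached by 2 in the higher direction (3.68% of all genes) and 3 in the lower (4.87%), and 0 passed after adjustment. Both Hdc-/- arrays read above both Hdc+/+ arrays for 7 of the 17 (21.5% of all genes) and below for 5 (17.6%). Hspa1b read 8.04 and 7.67 in Hdc-/- against 6.53 and 6.65 in Hdc+/+ (difference 1.26, SE 0.19, limma adjusted p = 0.256). Hspa1a differed by 1.22 (SE 0.20, limma adjusted p = 0.279). On the lower side stood Hspe1, at -1.22 (SE 0.21, limma adjusted p = 0.279), and the small heat shock genes Hspb8 (-0.60, SE 0.18) and Cryab (-0.54, SE 0.17), which were named after their values were seen. Hspa1a and Hspa1b are neighbours and nearly identical, so their signals may not be separate. The list's median was -0.08 without Hdc-/- array 1 and 0.22 without Hdc+/+ array 2. The 10 ER genes held no difference the size of those of Hspa1b and Hspe1. Larger lists around them also ran wide, from -1.40 to 1.08 for sensors and regulators and from -0.30 to 1.03 for other ER chaperones. A longer list tends to have a wider range, and the difference between the groups of genes was not tested.

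Genes whose promoter window holds the ER stress response element gave a list that expression did not choose, though it was drawn up after the values were seen. The 39 windows belonged to 37 genes, of which 29 were measured. Besides Hspa5, Hsp90b1 and Creld2 they included 7 genes of the other pathway lists, among them the lectin chaperones Calr and Canx, the isomerase gene Pdia6, the co-chaperone gene Dnajc3 and the ubiquitin ligase gene Syvn1. The median genotype difference over the 29 was 0.04, with 17 above 0, beside 54.1% of all genes. Both Hdc-/- arrays were above both Hdc+/+ arrays for 4, Creld2, Pdia6, Syvn1 and Esp16 (21.5% of all genes). They were below for 2, Acnat2 and Calr4 (17.6%). Esp16, Acnat2 and Calr4 are in none of the pathway lists. An unadjusted p under 0.05 was reached by 3, Esp16 in the higher direction (3.68% of all genes) and Acnat2 and Calr4 in the lower (4.87%), and 0 passed after adjustment. Esp16 (percentiles 0.178 to 3.06) and Calr4 (6.12 to 16.1) were among the dim genes of the arrays. The 29 also hold several Esp and Xlr3 genes, so they are not all unrelated. Calr read 10.01 and 9.67 in Hdc-/- against 9.68 and 9.78 in Hdc+/+, and Canx read 10.19 and 9.83 in Hdc-/- against 10.04 and 10.17 in Hdc+/+, both with the overlap seen for Hspa5 and Hsp90b1. Dnajc3, Derl3 and Ero1b overlapped as well. Without overlap, Pdia6 read 8.98 and 8.77 in Hdc-/- against 8.51 and 8.67 in Hdc+/+. Syvn1 read 6.21 and 6.14 in Hdc-/- against 6.04 and 6.09 in Hdc+/+.

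Genes with the profile closest to 3 members were found among 11080 genes brighter than the median gene and outside the 10, by the root mean square difference of the 4 centred log2 values. For Hspa5 they were Als2cl (0.00699), Mrpl11 (0.00864) and Ube4b (0.00968). For Xbp1 they were Mga (0.0151), Crlf2 (0.0178) and Utp20 (0.0179), and for Ddit3 they were Cdc23 (0.00648), Rif1 (0.0100) and Ylpm1 (0.0130). With only 4 values per gene and 11080 candidates, very small differences were likely beforehand for any gene. The names therefore say nothing of shared regulation.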

How the data were processed

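The deposited table holds log2 probe set values that the authors normalized by RMA. Oligo and Affymetrix Power Tools are further tools of the submitters' processing notes, from which RMA is also taken. Labelled cDNA was made from 5.5 ug of total RNA, per the labels' protocols. The sources used here give neither build nor filters. Of 41345 probe sets, the 23521 with 1 gene symbol were kept, and the one with the highest mean over the 4 arrays stood for a gene. Values ran from 0.384 to 13.3 and array medians from 4.05 to 4.15. With 2 arrays per genotype, the number of arrays limits the precision.

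Genotypes were compared with limma 3.58.1 in R 4.3.3 (lmFit, eBayes, no covariate, 2 residual and 3.62 prior degrees of freedom), adjusted over all genes. The fit was run on data simulated from its own variance prior with planted changes. That run checks the code and not whether the model suits these arrays. Lists are described by counts and medians, with no test. The members and lists were chosen with earlier results of these data known. Named genes are all members, Hdc, the 2 list genes with the smallest p, the brightest markers and the nearest profiles; others are said to be picked later or illustrate a marker or element. Alternatives were dim-gene filters, averaged probe sets, renormalization, another prior, a replicate block, each array left out and all probe sets.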

Additional observations from a re-analysis of the deposited data

How the results depend on the processing

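No member passed the limma test under any of 13 alternatives, where the lowest adjusted p was 0.432, and each member kept its value under the 7 that cannot move it, since it has 1 probe set. Under the other 6, 51 of 60 member values kept their direction and 9 reversed. Hsp90b1 was 0.0335 when quantile normalized again and 0.00305 with arrays centred. With 1 array left out, differences ran from -0.36 to 0.34 (Hsp90b1), -0.68 to 0.27 (Dnajb9), -0.0371 to 0.24 (Sdf2l1), -0.16 to 0.22 (Manf) and -0.24 to 0.0760 (Ddit3). The median of the members ran from 0.0328 to 0.24. List medians ran from -0.0803 to 0.29 (other chaperones), -0.11 to 0.28 (disulfide isomerases), -0.0349 to 0.17 (translocation), 0.0604 to 0.25 (glycosylation), -0.15 to 0.18 (ER to Golgi) and -0.0839 to 0.22 (heat shock proteins outside the ER). The degradation median was 0.0942 when quantile normalized again. Over all genes, limma called 2 higher and 3 lower when quantile normalized again, 3 higher and 2 lower with a trended and robust prior, and 0 higher with every probe set tested. Leaving out an array gave 0 to 3 higher and 0 to 158 lower, the 158 without Hdc+/+ array 1. In these fits the lone array is assumed to vary like the other genotype's. With the replicate number as a block limma called 1 higher and 6 lower. The labels do not say that the numbers mark pairs, and same-numbered arrays deviated with a correlation of -0.12. The crossed pairing, added after seeing the data, gave 0 higher and 0 lower. Neither block called a member. The cause of these shifts was not tested.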
